A study of Rattus norvegicus with 11 samples.

Results

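The 10 genes described here, Hspa5, Ddit3, Atf4, Atf3, Xbp1, Trib3, Asns, Herpud1, Dnajb9 and Sesn2, belong to the unfolded protein response and the integrated stress response. They were chosen by gene symbol out of 30560 genes in the expression matrix, and each symbol matched 1 gene. Poly(A) RNA was sequenced from the striatum of 11 adult male Sprague-Dawley rats, with 1 library per rat, to ask how the severity of an intracerebral hemorrhage and the early removal of the clot change expression. Collagenase VII-S, an enzyme that breaks vessel walls, produced a common hemorrhage (IC, 0.2 U in 1 µL, 3 rats) or a severe one (IS, 0.6 U in 3 µL, 3 rats), and in a further 3 rats with the severe dose the hematoma was aspirated after 6 h (IS-HA). The tissue was the striatum on the injected side at day 3, and the 2 Normal rats gave the corresponding region. Normal rats received no sham injection, so the needle, the saline and the enzyme cannot be told apart in any comparison with them, and IC and IS differed in both dose and volume. IS-HA rats also had the aspiration itself, which no IS rat had.

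Proteins that enter the endoplasmic reticulum (ER) are folded there by chaperones, and a load of unfolded protein is read by the sensors IRE1 (Ern1), PERK (Eif2ak3) and ATF6. IRE1 splices the Xbp1 messenger RNA, ATF6 is cut to release a transcription factor, and PERK phosphorylates the translation factor eIF2. The kinases PKR (Eif2ak2), GCN2 (Eif2ak4) and HRI (Eif2ak1) phosphorylate the same factor in response to double-stranded RNA, amino acid shortage and heme shortage, which slows most translation while ATF4 is still made. In the brain these pathways are known from ischemia and hemorrhage, where CHOP (Ddit3) is often used as a sign of prolonged stress. Counts per gene do not separate spliced from unspliced Xbp1 and say nothing of phosphorylation.

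Short promoter elements take part in the control of such genes, so the promoters in which a searched element was found are shown here. Promoter sequences from RefSeq (build GRCr8, another build than that of the counts) were matched for 9 of the 10 genes, all but Atf3, and the 250 bases before each start site were searched on both strands. The ER stress response element, searched as CCAAT, any 9 bases and CCACG, was found in Hspa5 and Xbp1 and in 22 of 33469 promoters (0.0657%). The C/EBP-ATF response element, TGATGNAA, was found in Trib3 and Herpud1 and in 3.4% of all promoters. The core of the unfolded protein response element, TGACGTG, occurred in Hspa5 and in 1.54% of promoters, and the cAMP response element TGACGTCA occurred in 0 of the 9 and in 1.59% of promoters. Only exact matches to these letters were searched, so a promoter without a match may still hold another form of an element. No match overlapped another. The windows are chr3:38452766-38453015 on the plus strand, chr14:84604373-84604622 on the plus strand, chr3:161275534-161275783 on the minus strand and chr19:10614708-10614957 on the minus strand. Each is written 5′ to 3′ on the strand of its gene, with the matched letters in capitals. In Hspa5 the capitals mark first the core and then the ER stress response element, and in Trib3 and Herpud1 the element reads on the opposite strand.
Hspa5: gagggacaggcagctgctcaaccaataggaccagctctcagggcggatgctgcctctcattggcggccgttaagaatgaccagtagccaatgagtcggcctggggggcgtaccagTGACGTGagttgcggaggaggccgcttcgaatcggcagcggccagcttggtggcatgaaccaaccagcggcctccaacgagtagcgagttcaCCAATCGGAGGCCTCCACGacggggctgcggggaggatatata
Xbp1: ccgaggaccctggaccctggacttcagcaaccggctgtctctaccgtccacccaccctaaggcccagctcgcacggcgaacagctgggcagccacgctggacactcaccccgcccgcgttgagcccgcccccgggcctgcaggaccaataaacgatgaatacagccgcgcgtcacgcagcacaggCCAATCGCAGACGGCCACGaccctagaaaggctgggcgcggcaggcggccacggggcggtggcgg
Trib3: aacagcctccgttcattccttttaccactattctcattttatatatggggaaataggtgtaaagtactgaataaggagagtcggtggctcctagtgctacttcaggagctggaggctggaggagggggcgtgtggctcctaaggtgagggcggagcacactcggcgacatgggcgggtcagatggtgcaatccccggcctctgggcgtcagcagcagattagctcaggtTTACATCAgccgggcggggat
Herpud1: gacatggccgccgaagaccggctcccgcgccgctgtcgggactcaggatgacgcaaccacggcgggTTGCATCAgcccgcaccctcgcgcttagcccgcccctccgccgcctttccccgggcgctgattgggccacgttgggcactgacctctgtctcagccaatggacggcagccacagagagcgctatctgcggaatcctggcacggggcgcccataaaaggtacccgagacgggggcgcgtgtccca
The ER stress response element ended 25 bases before the start site in Hspa5 and 47 bases before it in Xbp1, and the C/EBP-ATF element ended 14 bases before it in Trib3 and 177 bases before it in Herpud1.

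Libraries held 6701301 to 18817645 counts, so that 3 counts, the limit that a count of 0 allows, correspond to 0.448 CPM (counts scaled to a common library total) in the smallest and 0.159 CPM in the largest. IS-HA replicate 2 was the smallest library and stood apart in a trend over gene length. The 3149 shortest genes lay 0.71 above the other IS-HA rats in median log2 level and the 3149 longest lay 0.52 below, whereas the other 10 rats stayed between -0.35 and 0.27 of the rest of their group. Striatal markers matched the labelled tissue, since Ppp1r1b was at 2287 and 2102 TPM (transcript abundance corrected for gene length and library size) in the 2 Normal rats and Penk at 2500.1 and 2207. Cell type markers moved with injury. The summed level of the microglia and macrophage list was 325 to 473 TPM in Normal, 2432 to 3287 in IC, 4435 to 5788 in IS and 3225 to 5434 in IS-HA, and in IS 10 of its 10 genes were higher than in Normal. The neuron list fell from 2869 to 3803 TPM in Normal to 484 to 1483 in IS, with 8 of 8 genes lower, and 5 of 5 oligodendrocyte genes were lower as well. Neutrophil genes summed to 4.91 to 5.11 TPM in Normal and 494 to 696 in IS, where 5 of the 5 tested were higher, while Mpo stayed at or below 0.277 TPM in every rat. Of the other lists in IS, 7 of 8 striatal projection neuron genes were lower, astrocyte and endothelial genes each had 1 of 5 higher and 1 lower, plasma cell genes had 2 of 3 tested higher, and 0 of 2 red blood cell genes were called. In bulk tissue, fewer cells of a type and less RNA per cell cannot be told apart, and the part of these cell types in the values below was not tested.

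Across all 10 genes, hemorrhage moved the transcription factor Atf3 and the pseudokinase Trib3 by far the most, and the ER genes moved less. In IS, 7 of the 10 genes rose against Normal, 1 fell (Asns) and 2 did not pass the test (Ddit3 and Dnajb9). In IS-HA, 6 rose and 0 fell, and in IC, 2 rose and 0 fell. Genes were called at a Benjamini-Hochberg adjusted p under 0.05 in edgeR's quasi-likelihood test across 15742 genes, and every adjusted p below is from that test unless another is named. At this threshold 24.8% of all genes tested were higher and 24.1% lower in IS, 19.5% higher and 12.1% lower in IS-HA, and 13.0% higher and 4.64% lower in IC. The share called higher was thus above the background for IS and IS-HA, and in IC 2 of 10 was near it. The 10 genes were chosen with earlier results of these data known, so the shares are a description only. These 3 comparisons share the same 2 Normal rats, and no sample is independent between them. Without Normal replicate 3 the IS count was 3 (Atf3, Trib3 and Sesn2, all higher), beside 14.0% of all genes higher and 10.6% lower. The IS-HA count was 3, again Atf3, Trib3 and Sesn2, without Normal replicate 1 (10.6% of all genes higher and 5.44% lower) and without Normal replicate 3 (7.62% and 2.18%). Without Normal replicate 1 the IC count was 1 (Atf3), beside 6.51% of all genes higher and 1.46% lower. Without IS-HA replicate 2 the IC count was 4, with Sesn2 higher and Asns lower added, beside 19.2% and 14.1%. The median log2 fold change of the 10 genes was 0.26 in IC, 0.80 in IS and 0.55 in IS-HA, beside 0.00, 0.02 and 0.06 over all genes tested. In normalized counts, all rats of the group lay above both Normal rats for 8 of the 10 genes in IS, 8 in IS-HA and 5 in IC. They lay below both for 2, 1 and 1. Of all 15742 genes, 5913, 4992 and 5095 lay wholly above and 5798, 4599 and 4930 wholly below. Separation from only 2 Normal rats was thus common among all genes.

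**Figure D1:**
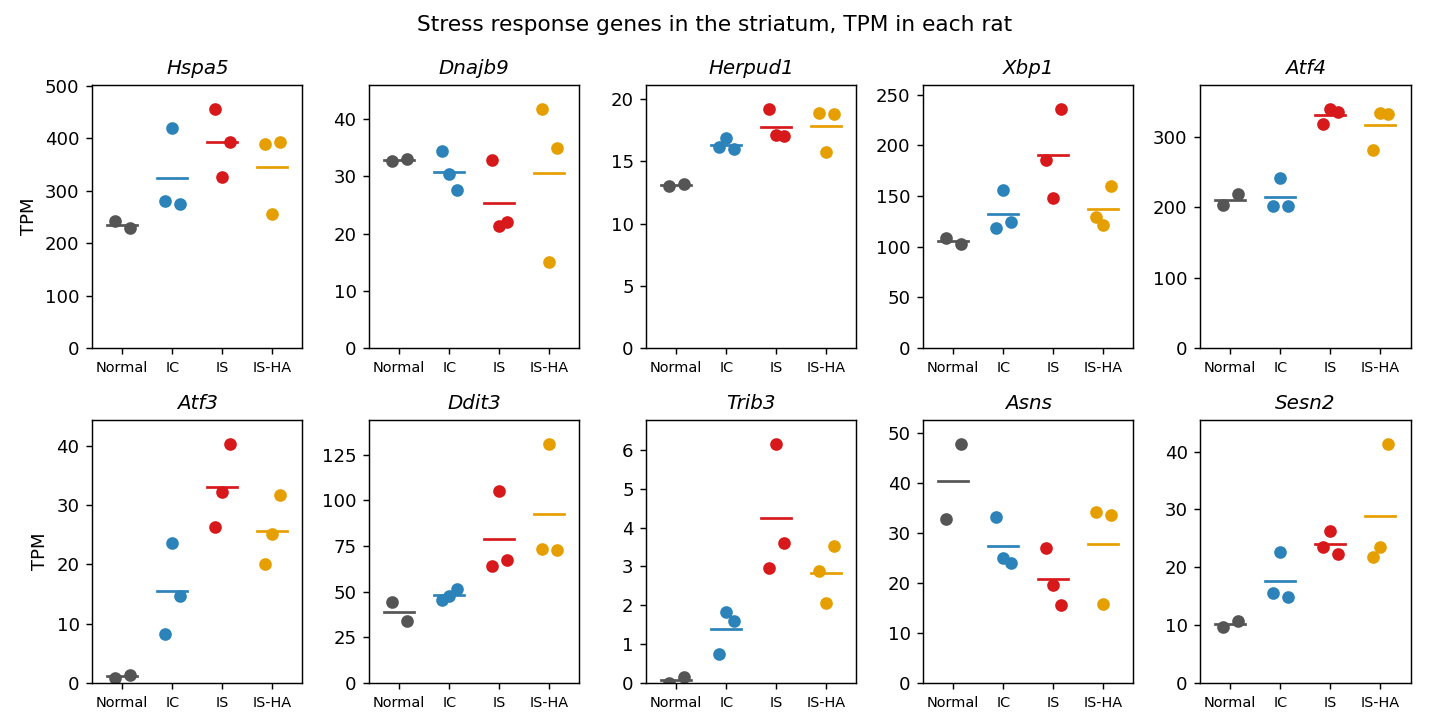
TPM of the 10 genes in each rat, with a panel and a linear axis from 0 for each gene, points for rats and bars for group means. All IS and IS-HA rats lie above both Normal rats for Hspa5, Herpud1, Xbp1, Atf4, Atf3, Ddit3, Trib3 and Sesn2. The Dnajb9 and Asns panels show no such rise. Such separation is common, since in normalized counts 5913 of all 15742 genes tested lie wholly above Normal in IS and 4992 in IS-HA.

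In uninjured striatum, levels ran from Hspa5 at 236 ± 8.82 TPM (SD, n = 2) over Atf4 at 211 ± 11.4 and Xbp1 at 106 ± 4.05 to Asns at 40.3 ± 10.7, Ddit3 at 39.0 ± 7.69 and Dnajb9 at 32.9 ± 0.32. Herpud1 at 13.1 ± 0.154, Sesn2 at 10.1 ± 0.794, Atf3 at 1.15 ± 0.362 and Trib3 at 0.0717 ± 0.101 followed. Only the neighbours Asns and Ddit3 had overlapping values between rats in this order. In IS the first 4 places were held by Hspa5, Atf4, Xbp1 and Ddit3, with Hspa5 and Atf4 overlapping, and Atf3 moved from place 9 in Normal to place 5. Atf3, Dnajb9, Sesn2 and Asns each overlapped with the next in order in IS, which for Asns was Herpud1, and Trib3 stayed last in all 4 groups.

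The ER chaperone BiP, encoded by Hspa5, binds unfolded proteins and holds the sensors inactive. Hspa5 was at 242 and 229 TPM in the Normal rats, at 281, 419.6 and 274 in IC, at 456, 327 and 393 in IS and at 389.7, 256 and 392 in IS-HA. Every injured rat lay above both Normal rats, while the injured groups overlapped with each other. The log2 fold change against Normal was 0.74 ± 0.21 (SE) in IS (edgeR adjusted p = 0.0153), 0.52 ± 0.21 in IS-HA (adjusted p = 0.0844) and 0.40 ± 0.21 in IC (adjusted p = 0.208). The IS call held in 20 of 22 alternatives, and was lost without Normal replicate 3 and when replicate number was added as a block. The lowest IS-HA value, 256 TPM, was that of replicate 2.

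Dnajb9, a BiP co-chaperone that helps to keep IRE1 inactive, showed no rise in any group. It was at 32.7 and 33.1 TPM in Normal, at 34.4, 30.4 and 27.6 in IC, at 32.9, 21.3 and 22.0 in IS and at 41.8, 15.1 and 35.0 in IS-HA. IS-HA replicate 2 was the lowest of the 11 rats and IS-HA replicate 1 the highest, so this group spanned all the others. Its log2 fold change against Normal was -0.37 ± 0.28 in IS (edgeR adjusted p = 0.286) and -0.16 ± 0.28 in IS-HA (adjusted p = 0.669).

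Herpud1 encodes a membrane protein of ER-associated degradation, which removes misfolded proteins for breakdown by the proteasome. It was at 13.0 and 13.2 TPM in Normal, at 16.1, 16.9 and 16.0 in IC, at 19.2, 17.1 and 17.0 in IS and at 18.9, 15.7 and 18.8 in IS-HA. The changes were small and the rats of a group lay close together, with every injured rat above Normal. The log2 fold change was 0.45 ± 0.14 in IS (edgeR adjusted p = 0.0214), 0.42 ± 0.14 in IS-HA (adjusted p = 0.0409) and 0.26 ± 0.14 in IC (adjusted p = 0.208). The call held in 16 of 22 alternatives for IS and in 7 of 22 for IS-HA. Both calls were lost without either Normal rat and when replicate number was added as a block.

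Xbp1 encodes the transcription factor that IRE1 activates by splicing, and its promoter holds the ER stress response element shown above, as does that of Hspa5. Xbp1 was at 109 and 103 TPM in Normal, at 118, 156 and 124 in IC, at 186, 148 and 236 in IS and at 129.7, 121 and 160.3 in IS-HA. On the TPM scale the injured groups overlapped, with IC replicate 3 above IS replicate 3 and IS-HA replicate 3 above it as well. On the scale of normalized counts, in which each rat is scaled in another way than in TPM, all IS rats lay above all IC rats and above all IS-HA rats. Its log2 fold change against Normal was 0.86 ± 0.23 in IS (edgeR adjusted p = 0.0114), 0.35 ± 0.23 in IS-HA (adjusted p = 0.256) and 0.26 ± 0.23 in IC (adjusted p = 0.447). The IS call held in 19 of 22 alternatives. Those that lost it include the fit without Normal replicate 3 and the one with replicate number as a block.

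Atf4, the factor made when eIF2 is phosphorylated, separated the severe dose from the common one in TPM. It was at 203 and 219 TPM in Normal, at 202, 241 and 202 in IC, at 319, 339.9 and 336 in IS and at 282, 334 and 333 in IS-HA. IC overlapped Normal, and every IS and IS-HA rat lay above every IC and Normal rat. The log2 fold change against Normal was 0.67 ± 0.20 in IS (edgeR adjusted p = 0.0169), 0.59 ± 0.20 in IS-HA (adjusted p = 0.0422) and -0.03 ± 0.19 in IC (adjusted p = 0.937). The IS call held in 18 of 22 alternatives and the IS-HA call in 8 of 22, and without IS-HA replicate 2 the IS-HA value was 0.41 (adjusted p = 0.0782). Both calls were lost without either Normal rat. With replicate number as a block the IS value was 0.50 (edgeR adjusted p = 0.232) and the IS-HA value 0.53 (adjusted p = 0.171).

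Atf3, a stress-induced factor that ATF4 can switch on, was almost silent without injury and had the clearest change of the transcription factors. Its TPM was 0.893 and 1.40 in Normal, 8.19, 23.7 and 14.6 in IC, 26.4, 32.2 and 40.4 in IS and 20.1, 25.2 and 31.7 in IS-HA. The Normal values came from 13 and 20 counts and the IS values from 246 to 315. All IS rats lay above all IC rats, and IS-HA overlapped both. The log2 fold change against Normal was 3.69 ± 0.51 in IC (12.9-fold, edgeR adjusted p = 0.000752), 4.87 ± 0.53 in IS (29.2-fold, adjusted p = 8.63e-05) and 4.47 ± 0.52 in IS-HA (22.1-fold, adjusted p = 0.000224). Atf3 was called in all 22 alternatives tried for each of the 3 comparisons.

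Ddit3 encodes CHOP, a factor downstream of ATF4 that is tied to cell death under lasting stress. Ddit3 was at 44.5 and 33.6 TPM in Normal, at 45.5, 47.5 and 51.3 in IC, at 64.2, 105 and 67.2 in IS and at 73.4, 131 and 72.7 in IS-HA. Rats with the severe dose lay above all IC and Normal rats, whether or not the hematoma was aspirated. Its log2 fold change was 1.28 ± 0.40 in IS-HA (2.42-fold, edgeR adjusted p = 0.0329), 1.03 ± 0.39 in IS (2.04-fold, adjusted p = 0.0505) and 0.24 ± 0.39 in IC (adjusted p = 0.693). IS thus missed the threshold narrowly, and 10 of 22 alternatives called it, while the IS-HA call held in 16 of 22. Alternatives that lost the IS-HA call include the fits without either Normal rat and the one with replicate number as a block. The highest Ddit3 value of all, 131 TPM, was that of IS-HA replicate 2, in which short genes were high, and Ddit3 lies at percentile 5 of gene length. Without that rat the IS-HA value was 0.76 (edgeR adjusted p = 0.0627), which is not called.

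Trib3, a pseudokinase induced by ATF4 and CHOP, was at the limit of detection without injury. It had 0 and 2 counts in the Normal rats, against 9 to 28 in IC, 24 to 59 in IS and 13 to 35 in IS-HA. In TPM these were 0 and 0.143 in Normal, 0.745, 1.83 and 1.60 in IC, 2.96, 6.16 and 3.61 in IS and 2.89, 2.05 and 3.52 in IS-HA. All injured rats lay above Normal, and all IS rats above all IC rats. Summed over rats and divided by library totals, the counts were 21.0 times those of Normal in IC (95% exact binomial interval 5.53 to 178), 67.4 times in IS (18.2 to 563) and 43.3 times in IS-HA (11.6 to 364), intervals that cover counting error only. The edgeR adjusted p was 0.00736 in IC, 0.000364 in IS and 0.00133 in IS-HA, and the call held in 20 of 21 alternatives for IC and in 21 of 21 for IS and for IS-HA.

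Asns, which makes asparagine and is a textbook ATF4 target in cultured cells, went the other way. Its TPM was 32.8 and 47.9 in Normal, 33.3, 24.9 and 23.9 in IC, 27.1, 19.5 and 15.6 in IS and 34.3, 15.7 and 33.7 in IS-HA. All IS rats were below both Normal rats, and IS-HA replicates 1 and 3 lay among the IC and Normal values while replicate 2 was as low as the lowest IS rat. The log2 fold change against Normal was -0.95 ± 0.27 in IS (edgeR adjusted p = 0.0143), -0.61 ± 0.27 in IC (adjusted p = 0.136) and -0.57 ± 0.27 in IS-HA (adjusted p = 0.122). The IS call held in 18 of 22 alternatives. It was lost, among others, without Normal replicate 3 and with replicate number as a block. The 8 neuron markers were lower in IS as well, with a median log2 fold change of -1.70.

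Sesn2 encodes sestrin 2, a stress-induced inhibitor of the growth regulator mTORC1. It was at 9.58 and 10.7 TPM in Normal, at 15.5, 22.6 and 14.8 in IC, at 23.5, 26.3 and 22.3 in IS and at 21.8, 23.5 and 41.4 in IS-HA. Every injured rat was above Normal, and IS-HA replicate 3 was the highest of the 11. Sesn2 rose by a log2 fold change of 1.26 ± 0.27 in IS (2.40-fold, edgeR adjusted p = 0.0034) and 1.49 ± 0.27 in IS-HA (2.80-fold, adjusted p = 0.00271), and was 0.74 ± 0.26 higher in IC (adjusted p = 0.0764). It was called in all 22 alternatives for IS and for IS-HA.

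**Figure D2:**
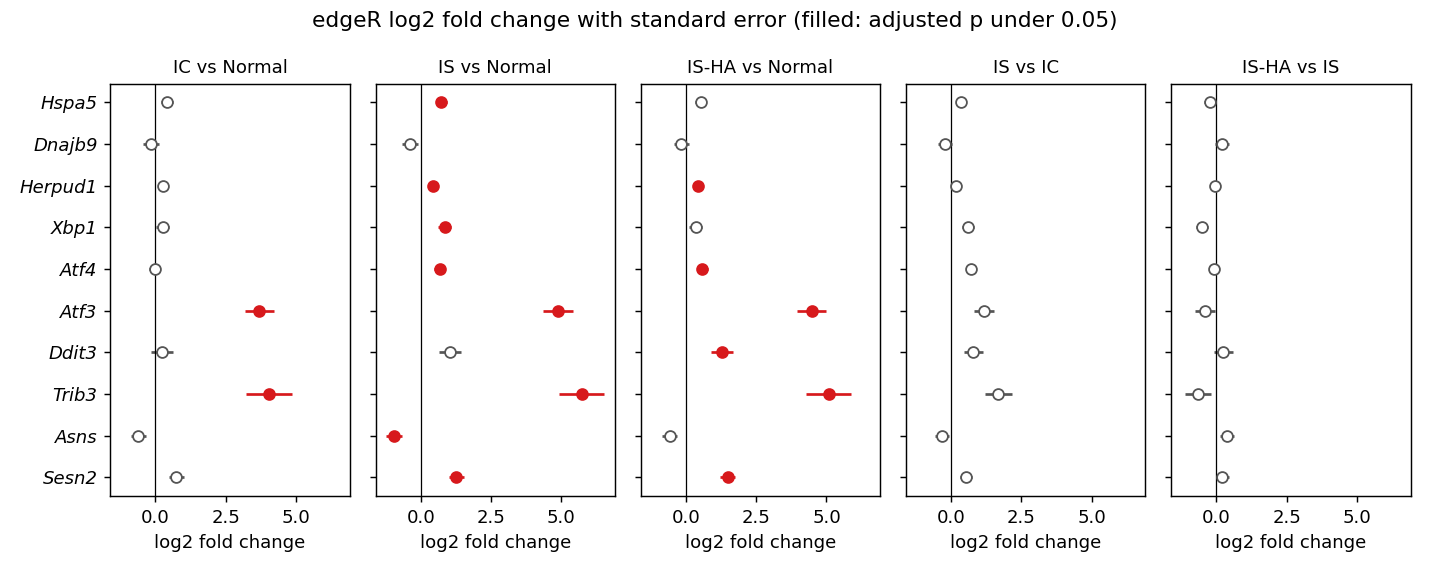
Log2 fold change (horizontal axis) of the 10 genes in 5 comparisons, with points for edgeR estimates, bars for standard errors and filled red points for adjusted p under 0.05. Atf3 and Trib3 lie farthest to the right in each comparison with Normal, Asns lies to the left of 0 there, and no point is filled in IS against IC or IS-HA against IS.

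Several of these values moved with gene length. When each rat's smooth trend over gene length was removed, an alternative chosen after seeing the data, the log2 fold change in IS against Normal went from 1.03 to 0.37 for Ddit3, from 0.67 to 0.27 for Atf4 (edgeR adjusted p = 0.149) and from 0.86 to 0.55 for Xbp1 (adjusted p = 0.0685). These genes lie at length percentiles 5, 15 and 22. Herpud1, at percentile 92, went from 0.45 to 1.03 (adjusted p = 0.00328). Hspa5, at percentile 41, went from 0.74 to 0.64 (adjusted p = 0.0256) and Sesn2, at percentile 61, from 1.26 to 1.41 (adjusted p = 0.00165). In IS-HA the call was lost for Ddit3 (1.28 to 0.58, adjusted p = 0.0663) and Atf4 (0.59 to 0.19, adjusted p = 0.349). The correction also removes any true difference between short and long genes, so neither set of values is free of assumption. The counts of genes called became 5 higher and 1 lower in IS, beside 26.0% and 21.9% of all genes, 4 higher in IS-HA, beside 19.2% higher and 12.1% lower, and 2 higher in IC, beside 14.2% and 5.11%, with Atf3 and Trib3 in each.

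**Figure D3:**
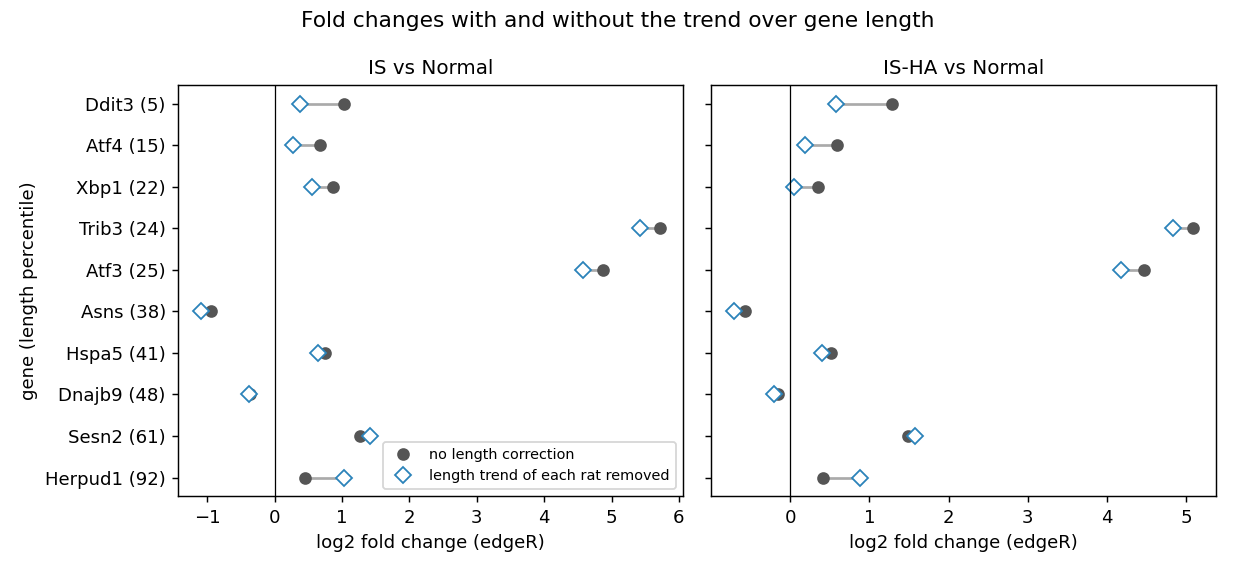
Log2 fold change (horizontal axis, edgeR) of the 10 genes in IS and IS-HA against Normal, with filled circles for the fit without and open diamonds for the fit with each rat's length trend removed, ordered from the shortest gene (percentile 5) to the longest (92). The diamonds lie to the left of the circles for the short genes Ddit3, Atf4 and Xbp1 and to the right for Herpud1.

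Beyond the 10 genes, 83 genes of the same pathways were listed in 7 lists, of which 82 were found in the matrix and 78 had enough counts to be tested. In IS against Normal, 37 of the 78 rose and 7 fell, beside 24.8% of all genes higher and 24.1% lower, with a median log2 fold change of 0.45. The count that fell depended on the processing. With the length trend removed, 37 rose and 2 fell, beside 26.0% and 21.9%. With library size alone 40 rose and 3 fell, and with DESeq2 38 rose and 7 fell. The share over all genes was not computed for either setting, so these counts cannot be set against a background. In IC 19 rose and 1 fell, beside 13.0% and 4.64%, and in IS-HA 29 rose and 2 fell, beside 19.5% and 12.1%. The IS count of 44 was 27 without Normal replicate 1 (17.6% of all genes higher and 17.5% lower) and 24 without Normal replicate 3, and the IS-HA count of 31 was 17 and 10. The IC count of 20 was 4 without Normal replicate 1, 3 without Normal replicate 3 (4.95% and 0.217%), 7 without IC replicate 3 (8.32% and 0.822%), 11 without IC replicate 4 (9.52% and 1.07%) and 31 without IS-HA replicate 2.

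Of the 15 tested ER folding genes, 10 rose and 0 fell in IS, beside 24.8% and 24.1% of all genes, with a median log2 fold change of 1.02. The other 5 did not pass the test, and 3 of them had estimates below 0. The list's summed level was 1400.4 to 1555 TPM in Normal, 1979.7 to 2754 in IC, 2591 to 3193 in IS and 2541 to 2623 in IS-HA, so that all injured rats lay above Normal. Sdf2l1, a partner of BiP complexes, was at 24.1 and 19.6 TPM in Normal and at 101, 121 and 154 in IS, a log2 fold change of 2.54 ± 0.40 (edgeR adjusted p = 0.000682). P4hb, a protein disulfide isomerase, was at 98.1 and 106 TPM in Normal and at 399, 368 and 589 in IS (2.18 ± 0.31, adjusted p = 0.000375). Pdia6, another isomerase, rose by 1.72 ± 0.25 (adjusted p = 0.000482) and Creld2, a stress-induced ER protein, by 1.49 ± 0.36 (adjusted p = 0.00658). These genes were named for having the largest called changes of the list, so their folds do not show how the list as a whole compares with Hspa5. Genes of this kind are also high in antibody-secreting plasma cells, and 2 of the 3 tested markers of these cells, Jchain and Sdc1, were called higher in IS. Jchain went from 1.16 and 1.18 TPM in Normal to between 2.03 and 6.32 in IS. Sdc1 went from 0.571 and 0.943 TPM in Normal to 161, 128 and 264 in IS, while Derl3 stayed between 3.49 and 7.75. Mzb1 (at most 1.84 TPM) and Tnfrsf17 (at most 0.502) had too few counts to be tested. The part of plasma cells in these values was not tested.

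Of 12 ER-associated degradation genes, 7 rose and 1 fell in IS, beside the same 24.8% and 24.1%, with a median of 0.55. Edem2 and Edem1, which pick out misfolded glycoproteins, rose by 1.75 ± 0.28 (edgeR adjusted p = 0.000733) and 1.71 ± 0.27 (adjusted p = 0.000702), and the lectin Os9 by 0.83 ± 0.17 (adjusted p = 0.00273). Their relative Edem3 fell by 0.77 ± 0.28 on the log2 scale (adjusted p = 0.042). In this fit the Edem genes thus went in both directions.

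Among the 8 tested sensors and their activators, 2 rose and 2 fell in IS, which is the share of all genes in each direction (24.8% and 24.1%), and the median was -0.42. PKR (Eif2ak2) rose in all 3 injured groups, by 1.31 ± 0.22 in IC (edgeR adjusted p = 0.00254), 1.29 ± 0.22 in IS (adjusted p = 0.00115) and 1.13 ± 0.22 in IS-HA (adjusted p = 0.00421). GCN2 (Eif2ak4) fell by 0.94 ± 0.27 in IS (adjusted p = 0.0164). The ER sensors did not pass the test, with log2 fold changes in IS of -1.42 ± 0.61 for IRE1 (Ern1, adjusted p = 0.0727), -0.84 ± 0.38 for Atf6 (adjusted p = 0.0916) and -0.35 ± 0.31 for PERK (Eif2ak3, adjusted p = 0.366), and neither did the heme-regulated kinase Eif2ak1, at -0.22 ± 0.22 (adjusted p = 0.405). Atf6b, the ATF6 relative, rose by 0.55 ± 0.17 (adjusted p = 0.0203), and the protease Mbtps1, which cuts ATF6, fell by 0.49 ± 0.15 (adjusted p = 0.0187).

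Of 9 tested genes of eIF2, its exchange factor and its phosphatase, 5 rose and 0 fell in IS, beside 24.8% and 24.1% of all genes, with a median of 0.64. Eif2b2 rose by 0.85 ± 0.24 (edgeR adjusted p = 0.0137), Eif2s1, which carries the phosphorylated site, by 0.80 ± 0.23 (adjusted p = 0.0155), Eif2b1 by 0.74 ± 0.27 (adjusted p = 0.0404) and Eif2s3 by 0.69 ± 0.15 (adjusted p = 0.00399). Ppp1r15a, the stress-induced phosphatase subunit GADD34, is listed at 0 in all 11 rats and gives no information.

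Of 11 ATF4 targets of amino acid supply, 5 rose and 2 fell in IS, beside 24.8% and 24.1% of all genes, with a median of 0.36. Mitochondrial folate enzymes Aldh1l2 and Mthfd2 rose by 2.41 ± 0.49 (edgeR adjusted p = 0.00256) and 1.78 ± 0.31 (adjusted p = 0.00119). The amino acid transporter chain Slc3a2 rose by 1.08 ± 0.18 (adjusted p = 0.000963), while its partner Slc7a11, the cystine carrier, fell by 1.63 ± 0.53 (adjusted p = 0.026). Slc7a11 was at 10.8 and 20.4 TPM in Normal and at 8.82, 3.65 and 2.48 in IS. Like Asns, Slc7a11 is thus an ATF4 target that was lower in IS. Of 12 tRNA synthetases only Tars1 rose (0.56 ± 0.17, adjusted p = 0.0192) and only Iars1 fell (-0.63 ± 0.19, adjusted p = 0.0191), fewer than the 24.8% and 24.1% of all genes, with a median of 0.11.

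Stress targets of ATF4 and CHOP outside amino acid supply had a median of 1.11, the highest of the 7 lists, with 7 of 11 tested higher and 1 lower in IS beside 24.8% and 24.1% of all genes. Gdf15, a circulating stress hormone, had 0 and 4 counts in the Normal rats and 82 to 202 in IS (edgeR adjusted p = 0.000817). Its share of counts in IS was 118 times that in Normal (95% exact binomial interval 45.6 to 434). That interval covers counting error only, and the IS rats ran from 14.5 to 49.1 TPM. Cebpb, a partner of ATF4 that is also prominent in inflammatory macrophages, was at 3.02 and 2.70 TPM in Normal and at 41.8, 41.3 and 64.7 in IS (4.13 ± 0.59, adjusted p = 0.000419). Eif4ebp1, a brake on translation, rose by 3.18 ± 0.44 (adjusted p = 0.000335) and the growth arrest gene Gadd45a by 1.87 ± 0.19 (adjusted p = 6.2e-05). The microglia and macrophage list rose beside these genes, with a median log2 fold change of 4.02.

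**Figure D4:**
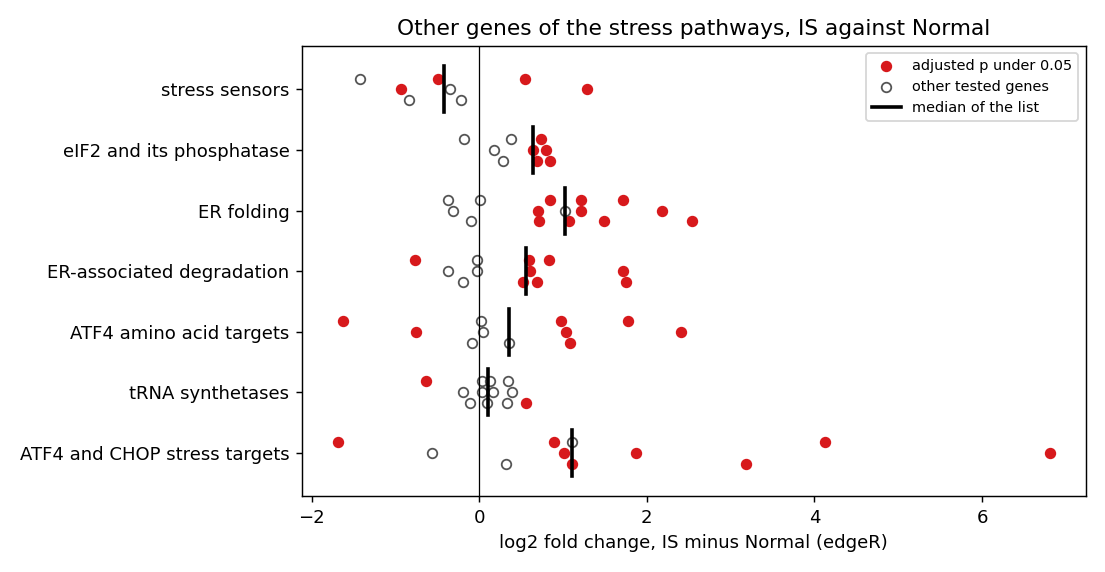
Log2 fold change in IS against Normal (horizontal axis, edgeR) of the 78 tested genes in 7 pathway lists, with red points for adjusted p under 0.05, open points for the other genes and black bars for list medians. The medians run from -0.42 for the sensors to 1.11 for the ATF4 and CHOP stress targets.

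To ask whether a severe hemorrhage raised these genes above a common one, IS was compared with IC. The 10 genes lay mostly higher in IS, by a median log2 fold change of 0.56, but 0 were called in either direction, as were 0% of all 15742 genes higher and 0% lower. All IS rats lay above all IC rats in normalized counts for 7 of the 10 genes (Ddit3, Atf4, Atf3, Xbp1, Trib3, Herpud1 and Sesn2) and below for 0, whereas 19.2% of all genes lay wholly above and 18.7% wholly below. At an unadjusted p under 0.05, 6 of the 10 genes were higher and 0 lower, beside 10.5% of all genes higher and 11.7% lower. The estimates were 1.68 ± 0.48 for Trib3 (edgeR adjusted p = 0.148), 1.18 ± 0.36 for Atf3 (adjusted p = 0.156), 0.79 ± 0.34 for Ddit3 (adjusted p = 0.216), 0.70 ± 0.18 for Atf4 (adjusted p = 0.147), 0.60 ± 0.20 for Xbp1 (adjusted p = 0.164) and 0.53 ± 0.23 for Sesn2 (adjusted p = 0.216). Hspa5, at 0.35 ± 0.19 (adjusted p = 0.286), overlapped between the groups.

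In the fit over all groups, the calls between IS and IC changed with a rat that is in neither group. Without IS-HA replicate 2, 3 genes were called, namely Atf4 (edgeR adjusted p = 0.0219), Trib3 (adjusted p = 0.0423) and Ddit3 (adjusted p = 0.0447), beside 6.38% of all genes higher and 7.71% lower. A fit of IS and IC alone, which holds no IS-HA rat at all, called 0 of the 10 genes and 0 of the 78 pathway genes. DESeq2's Wald test called Atf4 (adjusted p = 0.00975), Trib3 (adjusted p = 0.0189) and Atf3 (adjusted p = 0.0382), beside 3.18% higher and 3.42% lower of the genes to which it gave an adjusted p. Of the 78 pathway genes, 0 were called and 15 had an unadjusted p under 0.05, 13 of them higher and 2 lower, beside the 10.5% and 11.7% of all genes given above. DESeq2 called 5 of them, all higher in IS (Sdf2l1, Pdia6, Cebpb, Eif4ebp1 and Gadd45a), and without IS-HA replicate 2 edgeR called 9, of which 8 were higher. The marker lists moved between the same groups without a call, with a median of 0.71 for microglia and macrophages and -0.71 for neurons.

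To ask whether aspiration lowered these genes, IS-HA was compared with IS. Here 0 of the 10 genes were called, beside 0.00635% of all genes higher and 0% lower, and DESeq2 called 0 as well. At an unadjusted p under 0.05, 1 of the 10 genes was lower, Xbp1, beside 3.36% of all genes lower and 5.58% higher, and it was also the only one of the 10 with all IS-HA rats below all IS rats in normalized counts, beside 5.42% of all genes below and 4.95% above. Xbp1 had a log2 difference of -0.51 ± 0.20 (edgeR adjusted p = 0.544). The other estimates ran from -0.64 ± 0.46 for Trib3 (adjusted p = 0.658) to 0.37 ± 0.25 for Asns (adjusted p = 0.632), with Hspa5 at -0.23 ± 0.19 (adjusted p = 0.701) and Atf4 at -0.08 ± 0.17 (adjusted p = 0.907). These errors leave room for changes of either sign in most of the genes, so a missing call does not show that aspiration left them as they were. The sign of the Ddit3 estimate rested on IS-HA replicate 2, since it was 0.25 ± 0.34 (adjusted p = 0.837) with that rat and -0.27 without it (adjusted p = 0.477).

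Other pathway genes gave 0 calls of 78 in this comparison, with 4 at an unadjusted p under 0.05 (1 higher and 3 lower) and a median of -0.06. Without IS-HA replicate 2, Cebpb (-1.80, edgeR adjusted p = 0.0377) and Eif4ebp1 (-1.17, adjusted p = 0.0496) were called lower in IS-HA, beside 0.975% of all genes lower and 3.40% higher, and these 2 genes were chosen here after their values were seen. Cebpb was at 12.3, 36.1 and 19.6 TPM in IS-HA, with replicate 2, the rat left out, the highest of the 3. The neutrophil list varied most within IS-HA, from 168 to 858 TPM in sum. IS, at 494 to 696 TPM, lay inside that range.

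The patterns over all 11 rats were compared with those of every tested gene, by the root mean square difference of centred log2 CPM. The genes most like Hspa5 were Stard8 (0.105), Snx2 (0.106) and Bcl6 (0.108), beside a median of 0.529 over all genes. For Ddit3 they were Elp6 (0.162), Pdrg1 (0.185) and Uqcrh (0.203), beside a median of 0.751. All points share the libraries and their depth, so these distances are a description.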

How the data were processed

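RNA of 11 rats was analysed from 1 matrix of counts and TPM per gene. The authors prepared stranded poly(A) libraries and, per the submitters' processing notes, used fastp 0.20.0, HISAT2 2.1.0, SAMtools 1.9, featureCounts and the build mRatBN7.2; the annotation release and strand setting are not given in the sources used here. Deposited counts are raw reads per gene, and deposited TPM are corrected for gene length and library total. All columns were matched to rats by name, and 0 pairs were identical. The study used DESeq2; here counts were tested with edgeR 4.0.16 (R 4.3.3; TMM, filterByExpr, quasi-likelihood F test, 1 fit over 4 groups, no covariates, Benjamini-Hochberg over 15742 genes), checked on simulated counts. Standard errors are the absolute log2 fold change over the square root of F. P-values weigh each change against the spread between rats, which the main fit estimates over all 4 groups together.

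Alternatives were DESeq2 1.42.0, its size factors, library size alone, a replicate block, no filter or a minimum of 10 counts per rat, a fit of the compared groups alone, limma 3.58.1 on log2(TPM + 1) and log2(TPM + 0.1), scaling without 12 hemoglobin and mitochondrial genes, a log2 cutoff of 1, each rat left out and, added after seeing the data, an offset for gene length (counts over TPM, lowess per rat). The members and gene lists were chosen with earlier results of these data known. Named genes were all 10, the sensors, Ppp1r15a, and up to 4 genes per list with the largest called change in IS against Normal; others are markers, genes called only under an alternative, or the 3 nearest in pattern to Hspa5 and Ddit3. Mbtps2, Hba-a1 and Hba-a2 were not matched. Replicate numbers mark different animals and were not used as pairs in the main fit, while the replicate block treated equal numbers as matched. The labels do not say whether equal numbers share a source.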

Additional observations from a re-analysis of the deposited data

How the results depend on the processing

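All ranges over left-out rats give the lowest and highest count of 11 fits. Of the 10 genes, IC against Normal called 2, which became 1 with at least 10 counts in every rat, 4 with only the 2 groups compared and 1 to 4 without 1 rat. IS against Normal called 8, which became 3 under the replicate block, 3 with the fold cutoff of 1 and 3 to 9 without 1 rat. IS-HA against Normal called 6, which became 3 with only the 2 groups compared, 3 under the replicate block and 3 to 6 without 1 rat. IS against IC called 0, which became 3 with DESeq2 and 0 to 3 without 1 rat, and IS-HA against IS called 0 in every setting. Of the 78 pathway genes, IC against Normal called 20, then 2 under the replicate block, 12 with the fold cutoff and 3 to 31 without 1 rat. IS against Normal called 44, then 17 under the replicate block, 22 with the fold cutoff and 24 to 49 without 1 rat. IS-HA against Normal called 31, then 15 with only the 2 groups compared, 16 under the replicate block, 14 with the fold cutoff and 10 to 32 without 1 rat. IS against IC called 0, then 5 with DESeq2 and 0 to 9 without 1 rat, and IS-HA against IS called 0, then 0 to 2 without 1 rat. With the fold cutoff, 2960 of all 15742 genes were called higher and 2674 lower in IS against Normal. These counts were 2384 and 1212 in IS-HA and 1720 and 418 in IC. Shares over all genes are not given for the replicate block, the fit of 2 groups, the 10-count filter, library size alone or limma. They are also not given for DESeq2 in the comparisons with Normal. Of the pathway genes in IS against Normal, 16 were higher and 1 lower under the replicate block, and 35 and 2 by limma on log2(TPM + 1). The cause of the shifts between settings was not tested. Same-numbered IS and IC rats had deviations correlated at 0.324, -0.306 and 0.0804, and IS and IS-HA rats at -0.441 and -0.0683. Same-numbered IC and IS-HA rats were at -0.335 and 0.0413. The signs were mixed, but in groups of 2 or 3 rats such correlations cannot exclude that equal numbers share a source. Where a Normal rat was left out, the lone rat was assumed to vary like the other groups.

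The single-gene fold changes kept their direction except for 14 values, none of them called. Against Normal in IC, Ddit3 was -0.01 without Normal replicate 3 and -0.08 with the length trend removed, Atf4 was 0.11 with library size alone, 0.02 and 0.03 by limma on TPM plus 1 and plus 0.1 and 0.03 without IC replicate 2, and Dnajb9 was 0.10 under the replicate block. In IS-HA against Normal, Dnajb9 was 0.09 without IS-HA replicate 2. In IS-HA against IS, Ddit3 was -0.27 without IS-HA replicate 2, Atf4 was 0.03 under the replicate block and 0.05 without IS-HA replicate 1, Dnajb9 was 0.00 under the block and -0.03 without IS-HA replicate 1, and Sesn2 was -0.06 without IS-HA replicate 3. Over all fits without 1 rat, these ranges were -0.01 to 0.53 for Ddit3 and -0.07 to 0.03 for Atf4 in IC against Normal, -0.40 to 0.09 for Dnajb9 in IS-HA against Normal, and -0.27 to 0.49 for Ddit3, -0.27 to 0.05 for Atf4, -0.03 to 0.46 for Dnajb9 and -0.06 to 0.43 for Sesn2 in IS-HA against IS. Of the others, 1004 kept direction and call, 55 lost a call and 22 gained one. Trib3 has no value with at least 10 counts in every rat, since that filter removes it. Depth limits the folds of Trib3 and Gdf15, which had 2 and 4 counts in all of Normal.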
